A study of Mus musculus with 6 samples.

Results

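Mast cell genes, 5 encoding granule proteases and 5 encoding identity genes, were followed in RNA sequencing of macrophages from wild type (WT) mice and from progranulin knockout (PGRN KO) mice, in which the Grn gene for this secreted growth factor-like protein is inactive. The genes were taken by symbol from the deposited table, and all 10 were found among its 54532 genes. They were the proteases Cma1, Mcpt4, Tpsb2, Tpsab1 and Cpa3, the receptor genes Kit, Fcer1a and Ms4a2, the histamine-forming enzyme gene Hdc and the transcription factor gene Gata2. The series held 3 WT libraries (replicates 1, 2 and 3) and 3 PGRN KO libraries (replicates 4, 5 and 6), all of strain C57BL/6J by the labels. Cells of both groups had been challenged in culture with Candida albicans for 6 hours at 1 fungal cell per macrophage, and no unchallenged library was analysed here. The labels describe macrophages of the peritoneal cavity, whereas the study's text calls the sequenced cells bone marrow-derived and gives another ratio of fungus to cells, so where the cells came from is open and the labels were taken as given. The study bought its PGRN KO and WT mice from different suppliers, so genotype and supplier cannot be told apart. Nothing in the sources used here says that the 3 libraries of a group came from separate animals, and p-values measure the spread between these libraries, which may be technical.

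Mast cells are long-lived tissue cells that keep chymases, tryptases, carboxypeptidase A3 and histamine in granules, bound to the heparin chains of the proteoglycan serglycin. They depend on KIT, the receptor for stem cell factor, and carry the high-affinity receptor for IgE, whose engagement releases the granules. In mice, connective tissue mast cells reside in the peritoneal cavity beside resident macrophages, while the transcripts of Kit, Gata2 and Hdc also occur in cells outside this lineage.

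Levels are given as FPKM, a fragment number divided by gene model length and library size, as deposited. Fragments per gene were recovered from these values, and each library held 15996786 to 17551619 of them. Grn stood between 323 and 337 FPKM in WT, and no PGRN KO library had more than 1 Grn fragment. Replicate 6 of PGRN KO differed from the other libraries in its relation to gene length. Over the 1455 tested genes with a model no longer than that of Cpa3 (1517 bases), the median deviation from the gene's mean on the log2 scale was 0.285 in this library and lay between -0.0837 and 0.000155 in the other 5. Values without replicate 6 are therefore given beside the protease results.

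The protease genes were higher in PGRN KO libraries and none of the 5 identity genes was called. FPKM of the 5 proteases summed to 2.82, 2.11 and 2.01 FPKM in WT replicates 1, 2 and 3, while the PGRN KO sums were 9.16, 10.6 and 14.2 FPKM for replicates 4, 5 and 6. The group means were 2.32 ± 0.440 and 11.3 ± 2.60 FPKM (SD, n = 3), a ratio of 4.89. The other 5 genes together, nearly all of it Hdc, summed to 9.44 ± 1.70 FPKM in WT libraries and 9.64 ± 1.28 FPKM in PGRN KO (SD, n = 3). In bulk RNA, a different number of cells of a type and a different amount of RNA per cell cannot be told apart.

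Genes with a mean of at least 1 FPKM over the 6 libraries were compared with limma on log2(FPKM + 1), a scale that understates the change of low genes, with Benjamini-Hochberg adjustment over all 8882 genes tested and a threshold of 0.05. Of all genes tested, 24.2% were called, 10.4% as higher and 13.8% as lower in PGRN KO. Hdc, Tpsb2 and Cma1 passed the filter on low values, 2 of these 3 were called, and both were higher. Cma1 passed only through the PGRN KO group, since its WT mean was under 1 FPKM, so the count is a description. The remaining 7 genes fell under the filter. For them, a limma voom fit on the recovered fragments of the 14687 genes with a mean of at least 0.1 FPKM was used, which was chosen after seeing the data. It tested 9 of the 10 genes and called 5, the 5 proteases, all as higher, where 7.67% of all genes were called higher, 8.92% lower and 16.6% in either direction. Limma on log2(FPKM + 1) of the same 14687 genes called 3 of the 9 (Cma1, Tpsb2 and Cpa3), where 6.05% of all genes were called higher, 7.29% lower and 13.3% in either direction. None of these fits called any of the 10 genes lower, and none was lower at an unadjusted p under 0.05. Tpsab1, Mcpt4 and Fcer1a entered the voom fit only through the PGRN KO group, so the count of 5 is a description.

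**Figure D1:**
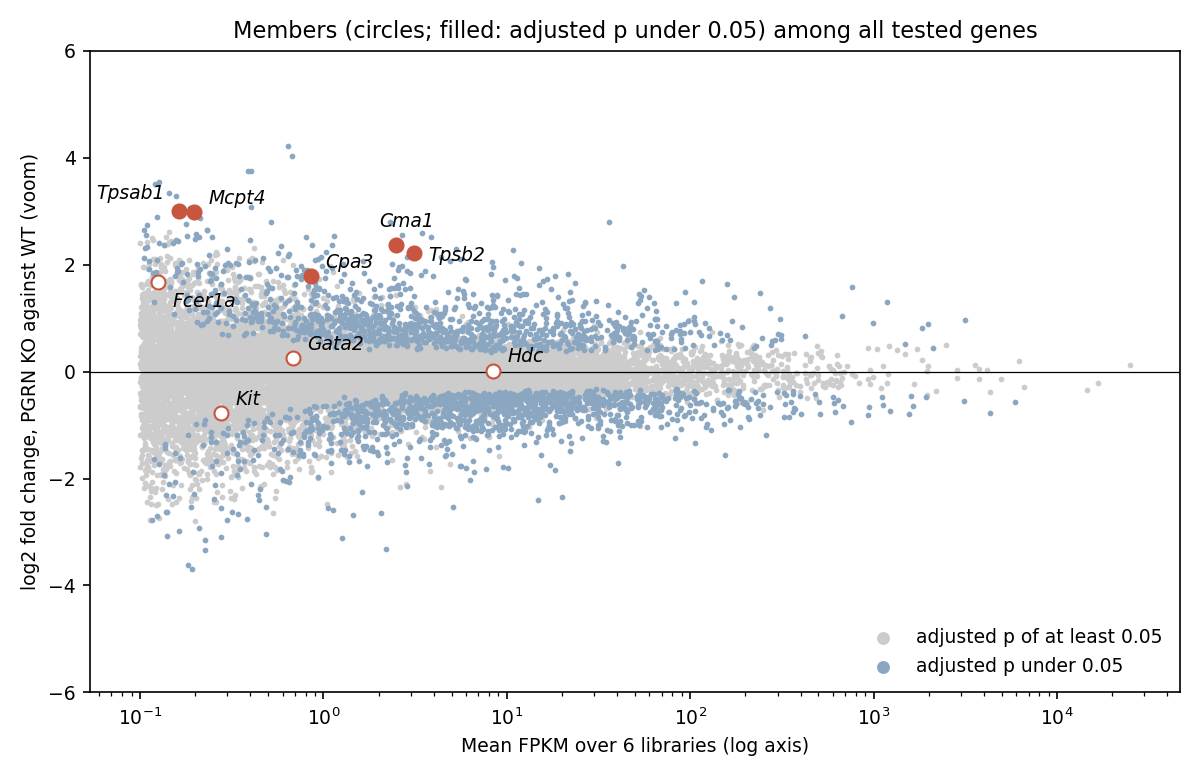
Mean FPKM over the 6 libraries (horizontal, log axis) against the log2 fold change of PGRN KO against WT in the voom fit (vertical), for 14687 genes with a mean of at least 0.1 FPKM, 1 of which lies beyond the axis limit of 6 (Grn). Small points are genes, blue where the adjusted p was under 0.05, and circles are the mast cell genes, filled where called. The 5 proteases lie above the axis at 1.78 to 3.0, and Hdc lies on it. Tpsab1, Mcpt4 and Fcer1a entered this fit only through the PGRN KO group.

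Tpsb2 (ENSMUSG00000033825) encodes a tryptase, a trypsin-like protease that is active as a heparin-bound tetramer. WT replicates 1, 2 and 3 had 1.44, 0.938 and 0.872 FPKM of it, from 26, 15 and 17 fragments, and the PGRN KO replicates, in the order 4, 5 and 6, had 4.27, 4.50 and 6.64 FPKM, from 80, 92 and 124 fragments. Every PGRN KO library lay above every WT library. The means were 1.08 ± 0.309 and 5.14 ± 1.31 FPKM (SD, n = 3), and the ratio of fragment rates was 4.73, with an exact 95% interval of 3.56 to 6.37 that covers counting error only. Without replicate 6 the ratio was 4.05 (2.99 to 5.56). In limma the log2 fold change was 1.55 ± 0.18 (SE), with an adjusted p of 0.00250, and it ranked 31 among the 8882 genes from the most raised downward. The table places the gene on chromosome 17 of GRCm38 at 25366550 to 25368094 on the plus strand, while GENCODE gives a longer model from 25366305 to 25369098.

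Tpsab1 (ENSMUSG00000024173), another tryptase gene near Tpsb2, lies on the minus strand of chromosome 17 from 25343245 to 25345562. It was near the limit of detection, with 0.0571, 0.0323 and 0 FPKM in the WT libraries and 0.193, 0.202 and 0.497 FPKM in the PGRN KO libraries. These values stand for 2, 1 and 0 fragments against 7, 8 and 18. The groups did not overlap, and the ratio of fragment rates was 10.2, with a counting interval as wide as 3.19 to 51.9. It was 6.84 (1.93 to 36.8) without replicate 6. The voom log2 fold change was 3.0 ± 0.78 (SE), with an adjusted p of 0.0297. Tpsab1 entered this fit only through the PGRN KO group, so its call is a description. This call was lost whenever any 1 WT library was left out (adjusted p of 0.0839, 0.109 and 0.129 without replicates 1, 2 and 3) and was not made by limma on the log2 FPKM of the same 14687 genes, where the adjusted p was 0.0905.

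Cma1 (ENSMUSG00000022225) encodes a mast cell chymase, a serine protease of the granule, from the minus strand of chromosome 14 at 55941451 to 55944675. Its WT libraries had 0.932, 0.620 and 0.813 FPKM, from 17, 10 and 16 fragments, and its PGRN KO libraries had 3.23, 4.26 and 5.15 FPKM, from 61, 88 and 97 fragments. All PGRN KO values exceeded all WT values. Means were 0.789 ± 0.157 and 4.21 ± 0.960 FPKM (SD, n = 3), a ratio of fragment rates of 5.30 (3.82 to 7.50), or 4.74 (3.35 to 6.82) without replicate 6. The limma log2 fold change was 1.53 ± 0.15 (SE) with an adjusted p of 0.00175, at rank 32 of the 8882 genes. Cma1 passed the filter of this fit only through the PGRN KO group, so its call and rank are a description. In the voom fit, whose filter the WT mean also passed, the log2 fold change was 2.36 ± 0.33 (SE) with an adjusted p of 0.00202. Of the 31-base words in its transcripts, 10.6% also occurred in the pseudogene Gm48934, which had no fragment in WT and 1 in PGRN KO.

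Mcpt4 (ENSMUSG00000061068), a second chymase gene in the same cluster, occupies 56059629 to 56062313 on the minus strand of chromosome 14. It had 0, 0.122 and 0 FPKM in WT libraries and 0.208, 0.334 and 0.522 FPKM in PGRN KO, from 0, 2 and 0 against 4, 7 and 10 fragments. The lowest PGRN KO library stood above the highest WT library. The ratio of fragment rates was 9.72 (2.38 to 85.5), and 7.52 (1.64 to 69.8) without replicate 6. The voom log2 fold change was 2.98 ± 0.82 (SE) with an adjusted p of 0.0349. Mcpt4 also entered this fit only through the PGRN KO group, so its call is a description. The call was lost without WT replicate 1, 2 or 3 (adjusted p of 0.155, 0.0546 and 0.150) and without PGRN KO replicate 5 (0.0679), and limma on log2 FPKM gave 0.0636. Cma2, with which Mcpt4 shares 10.2% of its words, had no fragment in any library.

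Cpa3 (ENSMUSG00000001865) encodes carboxypeptidase A3, a metalloprotease stored with the chymases, and spans 20215620 to 20242181 on the minus strand of chromosome 3, where it overlaps the microRNA gene Mir7007 on the same strand. The WT libraries had 0.394, 0.401 and 0.329 FPKM and the PGRN KO libraries had 1.26, 1.32 and 1.41 FPKM, from 10, 9 and 9 against 33, 38 and 37 fragments. Its SD was the smallest of the 5 proteases relative to the mean in both groups, with means of 0.375 ± 0.0399 and 1.33 ± 0.0779 FPKM (SD, n = 3). The ratio of fragment rates was 3.57 (2.34 to 5.62), and 3.47 (2.21 to 5.58) without replicate 6. The voom log2 fold change was 1.78 ± 0.32 (SE) with an adjusted p of 0.00557, and limma on log2 FPKM of the same genes gave 0.76 ± 0.08 (SE) with an adjusted p of 0.00380.

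**Figure D2:**
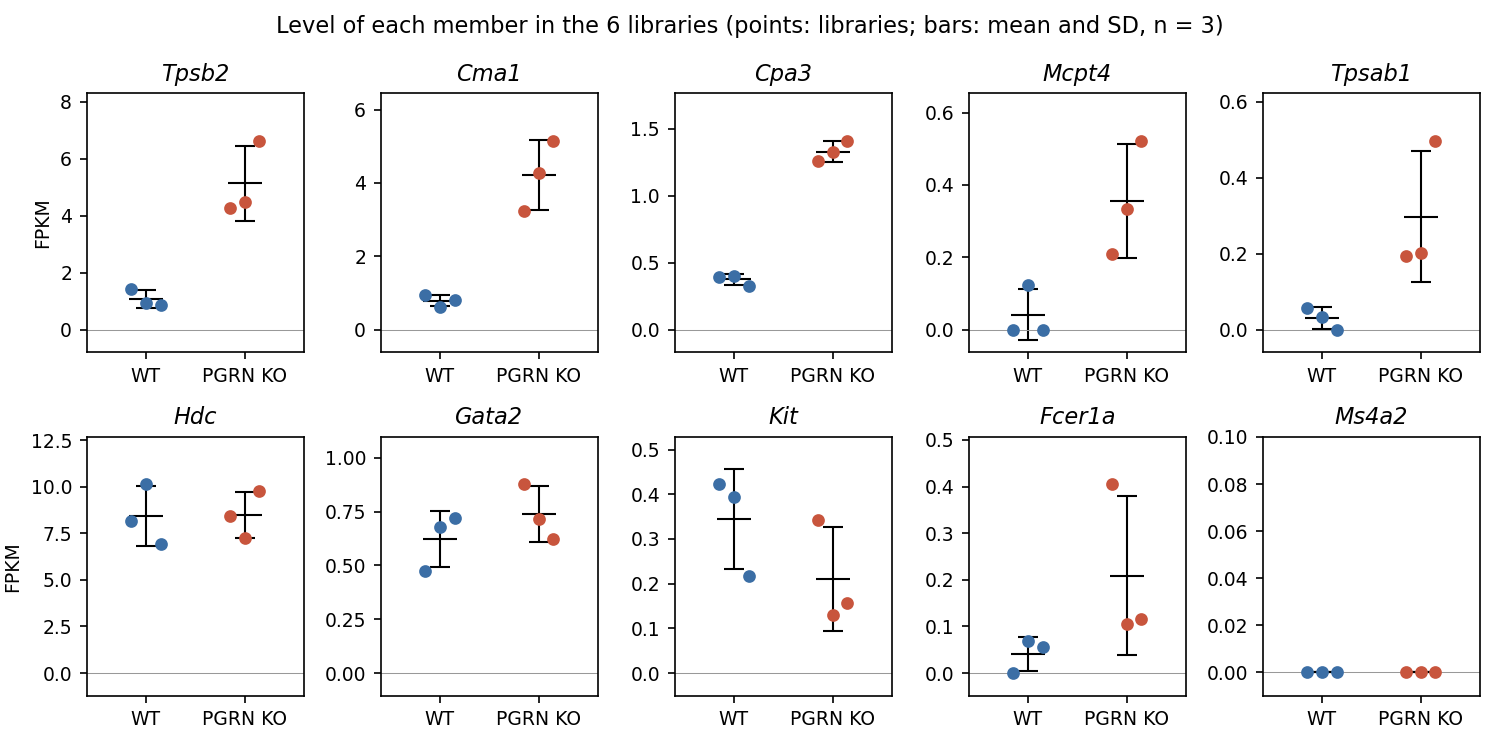
FPKM of each of the 10 genes (vertical, a separate scale per gene) in the WT and PGRN KO libraries (horizontal), with points for libraries and bars for the mean and SD (n = 3). The 2 groups lie apart for the 5 proteases and for Fcer1a, overlap for Hdc, Gata2 and Kit, and are at 0 for Ms4a2.

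For 3 of the proteases, the set of RefSeq promoters (GRCm38.p6) used here held a promoter, and it held none for Tpsb2 or Tpsab1. The 250 bases before the start are shown on the coding strand, because GATA2 is a mast cell factor that reads GATA words, with each such word in capitals. The windows are chr14:55944676-55944925 for Cma1, chr14:56062311-56062560 for Mcpt4 and chr3:20242182-20242431 for Cpa3, all on the minus strand.
Cma1: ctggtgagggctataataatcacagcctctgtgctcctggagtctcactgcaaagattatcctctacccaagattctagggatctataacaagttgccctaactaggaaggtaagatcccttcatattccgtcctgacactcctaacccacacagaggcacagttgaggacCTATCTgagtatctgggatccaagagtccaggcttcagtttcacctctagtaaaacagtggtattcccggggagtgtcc
Mcpt4: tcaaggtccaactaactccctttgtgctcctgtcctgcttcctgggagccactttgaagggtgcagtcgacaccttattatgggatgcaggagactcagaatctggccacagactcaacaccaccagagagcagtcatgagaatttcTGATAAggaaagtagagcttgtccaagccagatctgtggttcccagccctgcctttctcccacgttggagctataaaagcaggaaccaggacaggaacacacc
Cpa3: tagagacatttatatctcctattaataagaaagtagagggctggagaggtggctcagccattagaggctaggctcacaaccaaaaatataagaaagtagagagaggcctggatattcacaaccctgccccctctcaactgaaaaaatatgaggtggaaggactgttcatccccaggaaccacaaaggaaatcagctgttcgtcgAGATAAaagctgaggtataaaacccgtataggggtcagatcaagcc

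The search covered the word AGATAA, the word AGATAG, the word TGATAA and the word TGATAG, on either strand. A single word was found in each of these promoters, beginning 79 bases before the start in Cma1, 103 in Mcpt4 and 46 in Cpa3. Promoters in the table were given for 8 of the 10 genes, which had 10 promoters in all. A GATA word was held by 6 of these 10 promoters (those of Cma1, Mcpt4, Cpa3, Fcer1a, Ms4a2 and Hdc) and by 26.5% of all 32851 promoters of the same length. The promoters of Kit and Gata2 held none in this window. Kit and Gata2 were not called, but neither were Fcer1a and Hdc, which held a word, and Ms4a2, which held words, had no fragment. The E-box word CACGTG or the E-box word CATGTG, on either strand, was found in 1 of the 10, that of Fcer1a, and in 17.6% of all promoters. Matches are letters in the reference only, and binding was not measured.

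The counting interval of each protease's share of the summed protease fragments overlapped between the genotypes. Of 134 protease fragments in WT and 704 in PGRN KO, Tpsb2 made up 43.3% (exact Clopper-Pearson 95% interval 34.8 to 52.1) and 42.0% (38.4 to 45.8), and Cma1 made up 32.1% (24.3 to 40.7) and 34.9% (31.4 to 38.6). The Cpa3 share was 20.9% (14.4 to 28.8) in WT and 15.3% (12.8 to 18.2) in PGRN KO, the widest gap of the 5. Tpsab1 held 2.24% and 4.69%, and Mcpt4 held 1.49% and 2.98%. The difference in shares between the groups was not tested. By library, the Tpsb2 share ran from 40.5% to 47.3% in WT and from 39.5% to 43.4% in PGRN KO, so the order Tpsb2, Cma1, Cpa3 held while the total moved from between 37 and 55 fragments per WT library to between 185 and 286 per PGRN KO library.

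**Figure D3:**
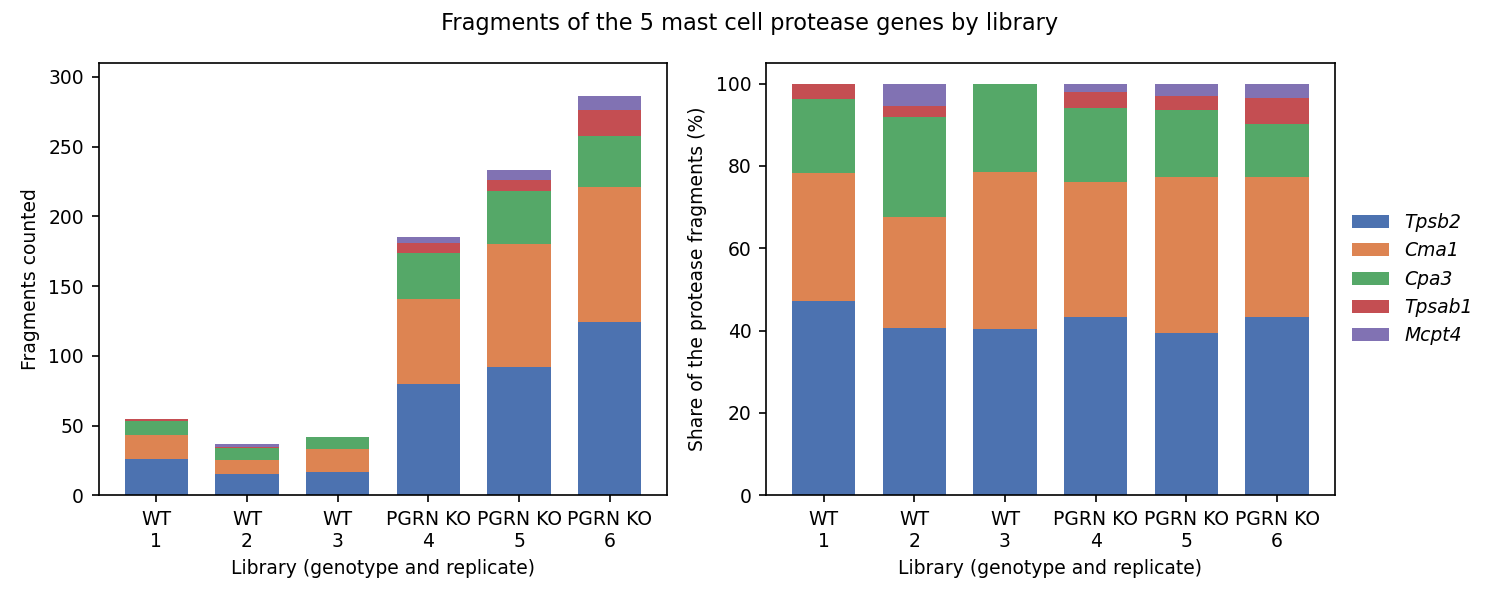
Protease fragments in each of the 6 libraries (horizontal), as a total count and as the percent held by each of the 5 genes (vertical). Totals are 37 to 55 in WT and 185 to 286 in PGRN KO, while the Tpsb2 share stays between 39.5% and 47.3%.

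None of the 3 receptor genes was called. Kit (ENSMUSG00000005672), on the plus strand of chromosome 5 from 75574916 to 75656722, had 0.423, 0.395 and 0.218 FPKM in WT libraries and 0.343, 0.130 and 0.156 FPKM in PGRN KO. The groups overlapped, at 0.345 ± 0.111 against 0.210 ± 0.116 FPKM (SD, n = 3). Kit had 150 fragments in WT and 99 in PGRN KO. The ratio of fragment rates was 0.611 (0.469 to 0.793), and 0.684 (0.511 to 0.908) without replicate 6, so it leaned opposite to the proteases. These intervals cover counting error only. The voom log2 fold change was -0.78 ± 0.40 (SE) with an adjusted p of 0.212, so no difference was called.

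Fcer1a (ENSMUSG00000005339) encodes the IgE-binding alpha chain and lies on the minus strand of chromosome 1 from 173221284 to 173227214. It had 0, 1 and 1 fragments in WT (0, 0.0677 and 0.0555 FPKM) and 7, 2 and 2 in PGRN KO (0.405, 0.106 and 0.116 FPKM). The groups did not overlap, but most PGRN KO fragments came from replicate 4. The ratio of fragment rates was 5.09 (1.11 to 47.3), and the voom log2 fold change of 1.68 ± 0.81 (SE) was not called, with an adjusted p of 0.191. Ms4a2 (ENSMUSG00000024680), on the minus strand of chromosome 19 from 11615523 to 11623719, encodes the beta chain of the same receptor. It had no fragment in any library, which allows a level of up to 0.0563 to 0.0721 FPKM per library (3 fragments). Expression of this defining gene was thus not detectable at this depth. The gamma chain gene Fcer1g, which macrophages share, stood at 684 ± 24.4 FPKM (WT) and 749 ± 145 FPKM (PGRN KO; SD, n = 3) and was not called.

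Hdc (ENSMUSG00000027360), whose enzyme makes histamine from histidine, had the highest FPKM of the 10 genes in both groups. It lies on the minus strand of chromosome 2 from 126593667 to 126619299. WT libraries had 8.19, 10.1 and 6.96 FPKM and PGRN KO libraries had 8.43, 7.26 and 9.76 FPKM, so the groups overlapped throughout. Means were 8.43 ± 1.61 and 8.48 ± 1.25 FPKM (SD, n = 3). The limma log2 fold change was 0.01 ± 0.15 (SE, adjusted p of 0.956), and with 802 to 1078 fragments per library the ratio of fragment rates was 1.01 (0.962 to 1.07). Gata2 (ENSMUSG00000015053), on the plus strand of chromosome 6 from 88193891 to 88207032, encodes a transcription factor needed for mast cells and blood progenitors. It had 0.476, 0.676 and 0.719 FPKM in WT libraries and 0.877, 0.714 and 0.622 FPKM in PGRN KO. The groups overlapped, with a voom log2 fold change of 0.25 that was not called (adjusted p of 0.510).

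Counted over the 10 genes, the PGRN KO libraries all lay above the WT libraries for 6 and all lay below for 0. Among genes with a mean of at least 0.1 FPKM, 18.6% lay wholly above and 20.4% wholly below, and with a mean of at least 1 FPKM the shares were 21.2% and 27.6%. Of the 6, Tpsab1, Mcpt4 and Fcer1a reached a mean of 0.1 FPKM only through the PGRN KO group, and Ms4a2 did not reach it. The count is therefore a description. The order of FPKM also differed between the groups. In WT, Hdc stood alone at the top, the ranges of Tpsb2 and Cma1 overlapped, as did those of Cma1 and Gata2, then came Cpa3 and Kit, which overlapped, and the remaining genes lay near 0. In PGRN KO, Hdc was again highest, Tpsb2 and Cma1 overlapped below it, and Cpa3 followed clear of both neighbours, above Gata2.

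Further mast cell genes were mostly at or near 0. Of 23 on the list, 5 had no fragment in any library (Mcpt1, Mcpt9, Mrgprb8, Gata1 and Smpx). Hpgds, the prostaglandin D synthase of mast cells and some macrophages, was the only one with a mean of at least 1 FPKM, which it reached only through the WT group. It fell from 1.59 ± 0.118 to 0.628 ± 0.0265 FPKM (SD, n = 3), with a limma log2 fold change of -0.67 and an adjusted p of 0.00451. In the voom fit 6 of the 23 were tested, of which Slc45a3 was higher (0.523 ± 0.0930 against 1.05 ± 0.173 FPKM, log2 fold change of 1.00, adjusted p of 0.0240) and Hpgds was lower. Over all genes of that fit, 7.67% were called higher and 8.92% lower. The 23 genes together had 839 fragments in WT, 505 of them from Hpgds, and 741 in PGRN KO, 216 of them from Hpgds, and their summed FPKM had a ratio of means of 0.928.

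Of 16 signalling genes downstream of the IgE receptor, 14 were tested by limma, 9 were not called, 2 were higher and 3 lower (10.4% higher and 13.8% lower over all genes tested), and the median log2 fold change was -0.19, against -0.03 over all genes tested. Pik3cd, a catalytic subunit of PI3-kinase, rose from 4.50 ± 0.104 to 7.77 ± 0.759 FPKM (log2 fold change of 0.67, limma adjusted p of 0.00509). The kinase gene Btk rose from 4.82 to 6.14 FPKM (0.29, adjusted p of 0.0373), a call that the voom fit did not make (0.0801). Vav1 fell from 55.7 ± 2.10 to 25.9 ± 1.81 FPKM (-1.08, 0.00119), Plcg2 from 18.7 to 11.03 FPKM (-0.72, 0.00309) and Syk from 88.4 to 63.4 FPKM (-0.48, 0.0239). All of these genes are also used by macrophages.

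In a list of 16 genes for the KIT ligand, KIT signalling and lineage factors, 13 were tested, 1 was higher and 4 lower (10.4% and 13.8% over all genes tested), with a median of -0.32. Lmo2, a cofactor that bridges GATA factors, rose from 12.8 ± 1.26 to 24.8 ± 4.47 FPKM (log2 fold change of 0.89, limma adjusted p of 0.00733). Cebpa, a myeloid factor, fell from 9.59 ± 1.90 to 4.003 ± 0.521 FPKM (-1.07, 0.00480), Runx1 from 11.8 to 6.26 FPKM (-0.82, 0.00340) and Sh2b3, an adaptor that restrains cytokine receptors, from 9.35 to 6.12 FPKM (-0.55, 0.0139). Of 18 genes for granule storage, protease activation, release and histamine handling, 9 were tested. None was called higher (1 at an unadjusted p under 0.05 in limma, and none called in the voom fit), and 2 were lower. Over all genes tested by limma, 10.4% were called higher and 13.8% lower. These were Ext1, a heparan sulfate polymerase, from 27.8 to 17.5 FPKM (-0.64, 0.00633), and Ctsc, the peptidase that activates granule serine proteases, from 69.8 to 46.4 FPKM (-0.58, 0.00571). Srgn, the serglycin gene, was abundant at 817 ± 54.2 and 771 ± 80.8 FPKM (SD, n = 3) and was not called.

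The neighbourhoods of the protease genes were compared by count. Within 500000 bases of Cma1 lay 75 other genes, of which 21 were tested, 4 higher (Rnf31, Tgm1, Khnyn and Gzmb) and 1 lower (Ltb4r1), with a median log2 fold change of 0.20. The share called, 23.8%, was close to the 24.2% called over all genes. That window held 15 genes of the chymase, granzyme and cathepsin G family, and 8 of them had no fragment in any library. Gzmb, a granzyme of lymphocytes, was called at 1.55 against 2.74 FPKM (log2 fold change of 0.55, limma adjusted p of 0.0174). Around Tpsb2, 60 other genes lay within the same distance, 16 were tested, and 1 was called, Jpt2, as higher (6.25% of those tested, against 24.2% over all genes).

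Markers of other cell types were measured in the same libraries, and some moved with the proteases. Of 8 B cell markers, Cd79a, Cd79b and Fcmr were tested by limma and called higher, but all 3 had WT means under 1 FPKM and passed the filter only through the PGRN KO group, so their count is a description. Cd79a, a chain of the B cell receptor complex, rose from 0.960 ± 0.341 to 3.78 ± 0.668 FPKM (log2 fold change of 1.29, limma adjusted p of 0.00327). The 8 genes together ran from 2.23 to 3.35 FPKM in WT libraries and from 8.75 to 12.1 FPKM in PGRN KO, a ratio of means of 3.62, and none of them was at 0 in all libraries. The voom fit called 6 of the 7 it tested as higher, of which Ms4a1 and Pax5 entered only through the PGRN KO group. Blk had overlapping groups and was not called (voom adjusted p of 0.151). Cr2, under the filter of both fits, had 3 fragments in WT and 2 in PGRN KO. Over all genes tested, voom called 7.67% higher and 8.92% lower, and limma called 10.4% higher. The 8 T and NK cell markers summed to 2.41 to 2.82 FPKM against 3.73 to 5.19 FPKM, and 1 of the 6 tested in the voom fit was higher (Cd4). The 4 dendritic cell markers summed to 1.84 to 2.27 FPKM against 1.1 to 1.44 FPKM, and 2 of the 3 tested by voom were lower (Flt3 and Xcr1). Zbtb46 leaned the other way, from a mean of 0.550 to 0.698 FPKM, with overlapping groups and no call. Clec9a, too low for that fit, also had more fragments among the PGRN KO libraries, 10 against 6. The part that these cells had in the protease result was not tested.

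Basophils share several of the 10 genes. The 4 basophil markers summed to 0.0487 to 0.386 FPKM in WT and 0.123 to 0.285 FPKM in PGRN KO, and the basophil protease gene Mcpt8 had no fragment in any library. For eosinophils, Epx, Prg2 and Prg3, which encode the granule proteins, were likewise at 0, and the 6 markers summed to 0.0914 to 0.311 FPKM against 0.155 to 0.352 FPKM. The remaining markers had few fragments and went in different directions, with 7 in WT and 36 in PGRN KO for Il5ra, 18 and 4 for Siglecf and 8 and 4 for Ccr3. Only Il5ra reached the voom filter, through the PGRN KO group, and no call is drawn from it. The neutrophil genes Ly6g, Elane and Cxcr2 were at 0, and the 9 markers summed to 20.0 to 21.0 FPKM against 17.2 to 21.5 FPKM, nearly all of it Mmp8 (means of 20.2 and 19.5 FPKM), while each of the other 8 had at most 8 fragments over the libraries of a group. The 6 mesothelial markers summed to 0.266 to 0.384 FPKM in WT and 0.119 to 0.329 FPKM in PGRN KO.

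The labelled cell type was checked in the same way. The 8 macrophage markers summed to 11618 to 12561 FPKM in WT and 10445 to 14377 FPKM in PGRN KO. Most of this was Lyz2, Cd14 and Cd68 (WT means of 5745, 4831 and 1220 FPKM). All 8 were tested by limma, with 1 higher and 1 lower (10.4% and 13.8% over all genes tested). Mertk rose from 1.41 to 3.24 FPKM (limma adjusted p of 0.00640), and Csf1r fell from 32.5 to 24.7 FPKM (0.0178). Gata6, the factor that defines resident macrophages of the peritoneal cavity, was detected in every library, with means of 3.95 ± 0.264 FPKM for WT cells and 4.50 ± 0.621 FPKM for PGRN KO cells (SD, n = 3). It is 1 of 9 markers of these resident cells, of which 5 were tested by limma and 1, Icam2, was called, as higher (log2 fold change of 0.57, adjusted p of 0.00914). Timd4, Selp, Tgfb2 and Vsig4 had few fragments, with 16, 15, 14 and 12 in WT and 3, 14, 24 and 25 in PGRN KO. The FPKM of Timd4 did not overlap between the groups, but WT replicate 1 and PGRN KO replicate 4 both had 2 fragments of it. The 9 markers summed to 35.6 to 36.6 FPKM against 34.9 to 49.6 FPKM, most of it Prg4 and Cd93, and the protease sums of 2.01 to 14.2 FPKM lay below them in every library.

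**Figure D4:**
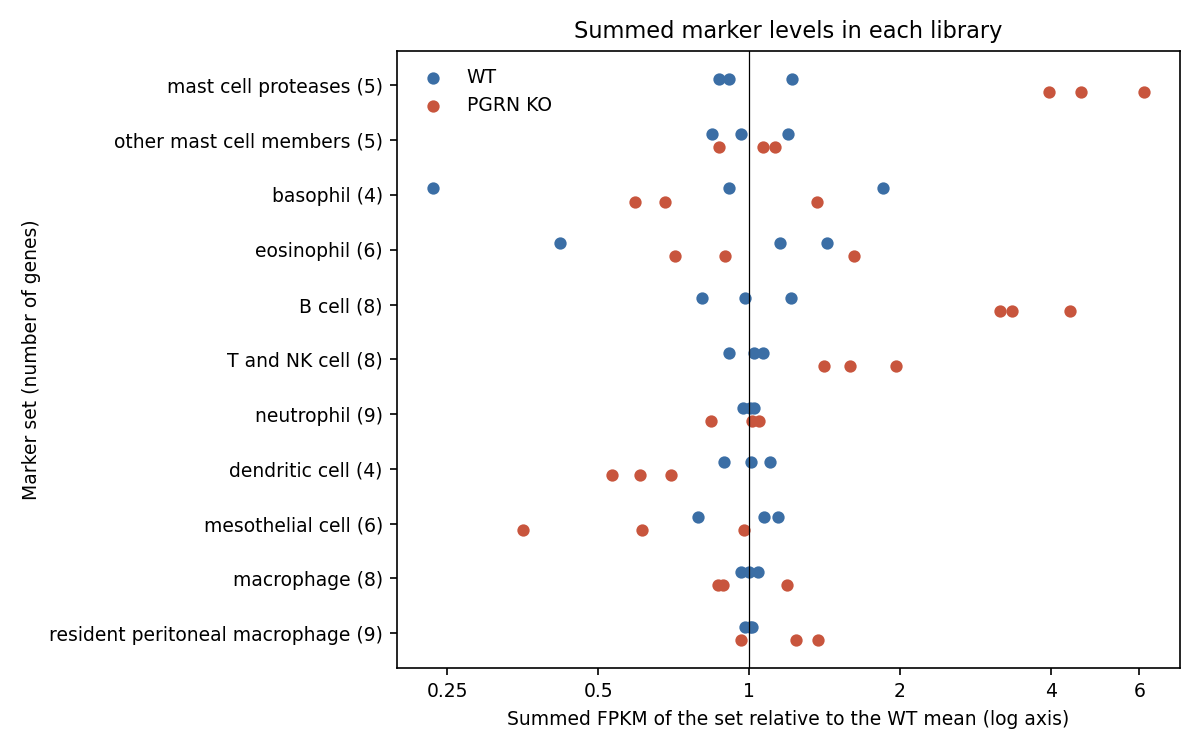
Summed FPKM of each marker set divided by its WT mean (horizontal, log axis) for the sets named on the vertical axis with their number of genes, with points for the WT and PGRN KO libraries and a line at the WT mean. The mast cell proteases (2.01 to 2.82 against 9.16 to 14.2 FPKM) and the B cell markers (2.23 to 3.35 against 8.75 to 12.1 FPKM) lie farthest to the right in PGRN KO. The sums of T and NK cell markers also lie apart above and those of dendritic cell markers below. Single genes of both these sets, and Cr2 among the B cell markers, went the other way. The other sets overlap.

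By the fixed rule, the pattern of the 3 genes with a mean of at least 1 FPKM (Hdc, Tpsb2 and Cma1) was most like that of Tmem243, with a Pearson r of 0.998 over the 6 libraries, then Actb (0.993), Anxa7 (0.992), Prdx4 (0.992) and Rpl36a-ps2 (0.991). A like r of at least 0.95 was reached by 172 genes. For the 5 proteases, a profile chosen after their values were seen, the nearest gene was Bcam (0.998), followed by Snd1, Ifi27, Plod1 and Gstm1, and 401 genes reached 0.95. The libraries form 2 groups and share their normalization, so these values describe likeness only.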

How the data were processed

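RNA was sequenced in 3 WT and 3 PGRN KO libraries of challenged macrophages. The authors deposited FPKM per gene with gene lengths. The submitters' processing notes name HISAT2 2.0.5, featureCounts 1.5.0-p3, DESeq2 1.20.0 and the builds mm10 and GRCm38, and the study's methods name other alignment and counting tools. Strandedness of the counting was not stated in those sources. FPKM times length gave whole fragments for 100% of values within 0.001 of a step, and the deposited FPKM had been scaled by library sizes 0.925 to 1.09 times the sum of fragments. A count model was not used. log2(FPKM + 1) was fitted in R 4.3.3 with limma 3.58.1 (moderated, mean-variance trend, two-sided, Benjamini-Hochberg) for genes with a mean of at least 1 FPKM, and voom used recovered fragments. Ratio intervals are exact and conditional on the summed fragments. Gene IDs matched GENCODE for 99.8% of the table. Functions were tested on simulated data. The genes and lists were chosen with earlier results of these data known. Named genes were the 10 genes, the 5 genes most correlated with those at a mean of at least 1 FPKM (predicted models excluded), up to 3 called genes per direction and list, mast cell genes with a mean of at least 1 FPKM, and the neighbours by count. Other genes were named after their values were seen. Alternatives covered pseudocounts, filters, scalings, variance models, gene length and each library left out.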

Additional observations from a re-analysis of the deposited data

How the results depend on the processing

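Cma1 and Tpsb2 were called higher in PGRN KO in all 25 alternatives that tested them, with log2 fold changes of 1.34 to 2.53 and 1.28 to 2.44 and adjusted p of 0.000119 to 0.0220 and 9.5e-05 to 0.0247 (limma or voom). Cpa3 was called in 8 of 8, Tpsab1 in 3 of 8 and Mcpt4 in 2 of 8, and Kit, Fcer1a and Gata2 in 0 of 8. Tpsab1 and Mcpt4 entered the voom fits only through the PGRN KO group, so their calls are a description. Cma1 passed the filter at a mean of at least 1 FPKM only through that group, so its calls in those fits are also a description. With a mean of at least 5 FPKM, 0 of the 10 genes were called because Cma1 and Tpsb2 fell under the filter. Voom at a mean of at least 0.1 FPKM, chosen after seeing the data, called 5, all higher, and 3 to 5 with 1 library left out (3 without any WT library, 4 without PGRN KO replicate 5), against 2 in every fit at a mean of at least 1 FPKM. Hdc was not called in any of 26 alternatives, and its log2 fold change turned negative with sample quality weights (-0.0501), with gene length correction without PGRN KO replicate 6 (-0.0817), without WT replicate 3 (-0.102), without PGRN KO replicate 6 (-0.0817) and in the voom fits without the same libraries (-0.113 and -0.0841), with the values on leaving out 1 library running from -0.102 to 0.141 in limma and -0.113 to 0.158 in voom. The cause was not tested. Over all genes, 2151 were called (921 higher and 1230 lower, 42.8% higher). The count was 1366 (603 and 763) with no filter, 529 higher with a mean of at least 5 FPKM, 4225 (1757 and 2468) with sample quality weights and 3693 (1460 and 2233) with length correction without PGRN KO replicate 6. On a TPM scale 911 were higher and 593 lower (60.6% higher), and with the sum of fragments as library size 1179 and 695 (62.9%). With 1 library left out it ran from 713 without WT replicate 1 (331 and 382) to 3668 without PGRN KO replicate 6 (1438 and 2230), with 855 on leaving out WT replicate 2, 883 for WT replicate 3 and 1390 for PGRN KO replicate 4. In the voom fits it was 829 (406 and 423), 839 (420 and 419) and 919 (419 and 500) on leaving out WT replicate 1, 2 or 3, and 4528 (2049 and 2479) for PGRN KO replicate 6. No paired analysis was possible because no replicate number occurs in both genotypes. Depth limits Tpsab1, Mcpt4 and Fcer1a, which had 2 or 3 fragments over all WT libraries, and Ms4a2, which had none. With 3 libraries per group, no unchallenged cells and the cells' source unsettled, the protease difference is one between these libraries.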
